A study of Mus musculus with 6 samples.

Results

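Genes of sterol and fatty acid synthesis, 8 in number, were followed in whole blood of food-restricted mice. They were Fasn, Srebf1, Srebf2, Hmgcs1, Sqle, Idi1, Fdps and Insig1. Every array probe whose accession RefSeq lists for one of them was taken. Of the 8 genes, 7 had a probe named here, 11 probes in all, among 16535 named genes on the array. No probe was named for Idi1, whose probes on the array carry a retired accession that the RefSeq list used does not hold. The blood came from the heart of male C57BL/6J mice, an inbred strain, aged 9 weeks. One group was given 50% food restriction (FR) of a standard chow for 2 weeks, and the control group a normal diet, with 8 mice each. Each diet was pooled as animals 1 to 8 (pool 1), 1 to 4 (pool 2) and 5 to 8 (pool 3), so pools 2 and 3 are the 2 independent replicates and pool 1 repeats the same animals. FR and control RNA of a pool were hybridised together to 2 Agilent two-colour arrays of opposite dye orientation, which makes 6 arrays.

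Cells make sterols and fatty acids from acetyl-CoA, and the transcription factors SREBP-1 (Srebf1) and SREBP-2 (Srebf2) switch on most enzymes of both routes. The factors are made as membrane precursors. They are released by cleavage in the Golgi when sterols are low, while INSIG proteins hold them in the endoplasmic reticulum when sterols are high. SREBP-2 is known mainly for cholesterol synthesis and uptake, and the SREBP-1c form for fatty acid synthesis, where insulin raises it in liver and fasting lowers it. In blood, nucleated white cells and red cell precursors make lipids for their own membranes.

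The FR channel was well above background at 20.4% to 55.6% of the probe spots of an array, and the control channel at 37.2% to 62.1%. No spot was saturated, and the number of pools limits the precision. The log2 ratios of any 2 arrays, turned to FR over control, correlated between 0.71 and 0.94 over 13268 probes. Between an array of pool 2 and one of pool 3, which share no animals, the range was 0.71 to 0.87. Red cell and white cell markers were present in both groups. Of 9 erythroid markers with a probe, 8 exceeded background in both groups on each of the 4 arrays of pools 2 and 3, Hba-a1 and Alas2 among them. White cell markers were at 12 of 20 in FR and at 20 of 20 in control by the same count. The median log2 ratio of the 20 white cell markers was -1.97 in pool 1, -1.97 in pool 2 and -1.55 in pool 3, and 17 of them fell. Their summed processed signal was 105304 and 79945 in FR pools 2 and 3, against 616499 and 288143 in control. Platelet markers fell in 8 of 10, with summed signals of 307245 and 204456 in FR, against 710847 and 571179 in control. In a bulk sample, fewer cells of a type and less RNA per cell cannot be told apart.

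Fasn and Srebf1 were the 2 members that fell in FR blood, and no member rose, also at an unadjusted limma p under 0.05 (0 of 4 tested). Of the 7 genes with a named probe, 4 entered the test. The test requires FR or control to be marked well above background by the scanner software on all 4 arrays of pools 2 and 3. Sqle and Srebf2 were tested and did not pass, and Hmgcs1, Fdps and Insig1 were too dim to be tested. Of 11508 features tested across the array, 24.5% were lower and 3.73% were higher at an adjusted p under 0.05 (limma, Benjamini-Hochberg). Against that background, 2 of 4 members is too small a number to set the genes apart. Loess normalization puts the median feature near 0, so each ratio is relative to the rest of the blood transcripts.

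The promoter windows of these genes are shown because the 2 SREBP genes and their targets are known to share control elements. RefSeq gave a window of 250 bases before to 50 bases after an annotated start for 6 of the 8 genes, and Sqle and Fdps are named only. Srebf1 has 3 annotated starts, which makes 8 windows. Each was searched on both strands for TCACNCCAC (a sterol regulatory element), CACGTG (an E-box), CCAAT (the NF-Y element) and GGGCGG (an Sp1 element). The windows of the members that fell, Fasn and Srebf1, and of Srebf2 and Hmgcs1 for comparison follow, 5′ to 3′ on the gene's strand, with every match in capitals.
Fasn: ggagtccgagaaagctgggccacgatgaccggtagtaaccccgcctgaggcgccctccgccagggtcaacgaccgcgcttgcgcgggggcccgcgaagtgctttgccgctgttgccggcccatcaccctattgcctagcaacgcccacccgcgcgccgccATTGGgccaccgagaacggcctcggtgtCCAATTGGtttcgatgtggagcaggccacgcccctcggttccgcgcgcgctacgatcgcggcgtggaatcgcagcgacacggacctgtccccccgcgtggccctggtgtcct
Srebf1: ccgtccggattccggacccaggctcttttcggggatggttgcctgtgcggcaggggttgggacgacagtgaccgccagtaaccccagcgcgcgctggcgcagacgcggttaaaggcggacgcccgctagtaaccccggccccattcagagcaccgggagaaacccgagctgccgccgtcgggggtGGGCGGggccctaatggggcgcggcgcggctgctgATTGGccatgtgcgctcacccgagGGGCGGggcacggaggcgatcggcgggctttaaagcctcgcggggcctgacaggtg
Srebf2: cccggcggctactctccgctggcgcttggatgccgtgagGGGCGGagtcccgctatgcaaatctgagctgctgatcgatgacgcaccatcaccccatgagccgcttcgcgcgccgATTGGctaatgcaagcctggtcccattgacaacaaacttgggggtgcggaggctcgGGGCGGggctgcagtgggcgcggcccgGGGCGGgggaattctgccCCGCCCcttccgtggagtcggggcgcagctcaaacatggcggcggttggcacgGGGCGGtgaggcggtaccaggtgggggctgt
Hmgcs1: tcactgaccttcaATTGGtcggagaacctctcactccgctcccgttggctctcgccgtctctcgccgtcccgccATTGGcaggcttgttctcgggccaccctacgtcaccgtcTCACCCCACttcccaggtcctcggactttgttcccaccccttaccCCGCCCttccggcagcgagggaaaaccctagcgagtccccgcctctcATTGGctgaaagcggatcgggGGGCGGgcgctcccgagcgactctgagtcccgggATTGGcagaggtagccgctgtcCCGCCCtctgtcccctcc
On build GRCm38.p6 they lie at chr11:120824498-120824797 for Fasn and chr11:60210422-60210721 for the third Srebf1 window, both on the minus strand. The Srebf2 window is at chr15:82147019-82147318 and the Hmgcs1 window at chr13:119690101-119690400, both on the plus strand. The sterol element was matched in 1 of the 8 windows, that of Hmgcs1, where it begins at position -137 from the start, and in 1.24% of all 32851 promoter windows. CCAAT was matched in 7 of the 8 windows and in 37.4% of all. Fasn has 3 such matches, of which 2, on opposite strands, overlap in the run CCAATTGG. GGGCGG was matched in 6 of the 8 windows and in 35.7% of all, with 5 matches in Srebf2 and 0 in Fasn. CACGTG was matched once, in Insig1, and in 7.15% of all windows. A match is a run of letters and not a measured binding site. Only runs with exactly these letters were counted, so a window without a match can still hold a variant of the element.

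**Figure D1:**
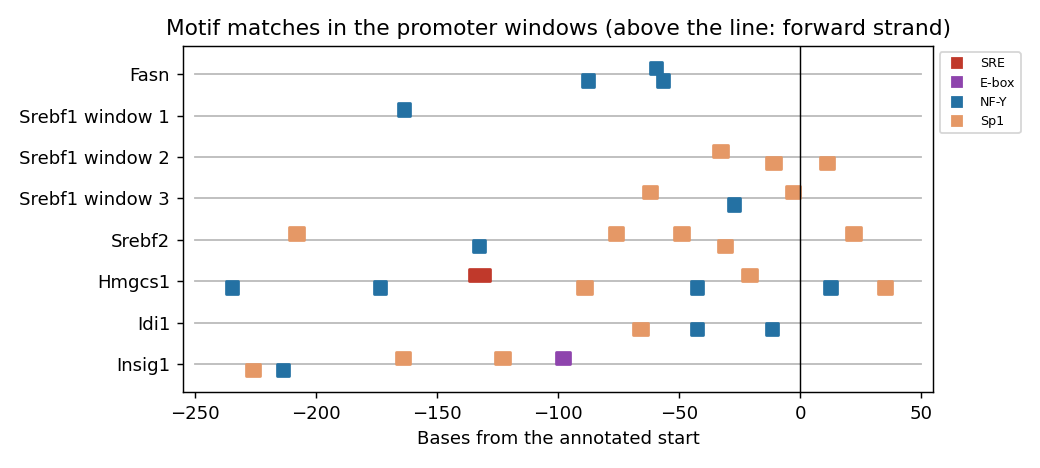
Motif matches in the 8 promoter windows of the 6 genes with a RefSeq window, by distance in bases from the annotated start, with boxes above each line for the forward strand and below it for the reverse strand. The single match to the sterol element (SRE) is in Hmgcs1, and the NF-Y element is matched in 7 of the 8 windows.

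Fasn encodes fatty acid synthase, the multienzyme that builds palmitate. Its brighter probe had processed signals of 175, 80.2 and 120 in FR pools 1, 2 and 3, against 681, 906 and 533 in control. Every FR pool lay below every control pool. FR was above background on 2 of the 4 arrays of pools 2 and 3, and control on all 4. The probe thus entered the test through control, and the size of the fall is uncertain. The log2 ratio was -1.35 in pool 2 and -0.80 in pool 3, and the repeat measurement in pool 1 gave -1.09. Fasn thus fell by 1.08 ± 0.39 on the log2 scale (SD, n = 2 pools), or 2.11-fold (limma adjusted p = 2.82e-13). All 6 arrays had a negative ratio, as had 30.0% of tested features. The ratio was -0.75 over the arrays of pools 2 and 3 with FR in Cy5 and -1.40 over those with FR in Cy3. The background offset compresses ratios of dim probes, and with processed signals the mean was -2.92 ± 0.91.

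The second Fasn probe did not show this. Its signals were 74.8, 52.3 and 102 in FR and 57.1, 77.5 and 59.3 in control, so the groups overlap. It was above background on 0 of 4 arrays in FR and 2 of 4 in control, was not tested, and had a log2 ratio of 0.08 ± 0.01. The call on Fasn therefore rests on 1 probe. Among tested features, 4.96% had a lower ratio than Fasn.

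Srebf1, the gene of the lipogenic factor SREBP-1, was the only member above background in both groups on all 4 arrays. It has a single probe, and whether that probe detects the 1a form, the 1c form or both was not determined. Processed signals were 572, 498 and 580 in FR pools 1 to 3, against 930, 1129 and 862 in control. The pool values of the groups do not overlap, though pool 1 repeats the animals of pools 2 and 3. On single arrays the signals did overlap, from 360 to 908 in FR and from 726 to 1190 in control. The log2 ratio was -0.89 in pool 2, -0.45 in pool 3 and -0.61 in pool 1. Srebf1 fell by 0.67 ± 0.31 (SD, n = 2 pools), or 1.59-fold (limma adjusted p = 0.000148). The call ended in the fit with no replicate block, which sets FR pools against control pools without the array pairing (adjusted p = 0.124). All 6 arrays were negative, and 11.9% of tested features had a lower ratio.

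With 2 pools, limma gave features of like brightness a common variance, so its p-values are too small for any 1 gene. When the prior degrees of freedom were instead those estimated from 3 pools (5.41), Fasn had an adjusted p of 0.00925 and Srebf1 of 0.0421. In that fit 15.5% of all features were lower and 1.53% higher. Pool 1 repeats the animals of pools 2 and 3, so the estimate of 5.41 does not rest on 3 independent pools. An exact sign-change permutation test over 2 pools alone cannot give an exact two-sided p below 0.5.

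Srebf2, the sterol-directed paralogue, did not pass and had a mean ratio above 0. Its brighter probe had signals of 1443, 564 and 679 in FR, against 1355, 271 and 619 in control, and the groups overlap. Signals of this probe varied several-fold between arrays in both channels, from 317 to 1542 in FR and from 192 to 1378 in control. The log2 ratio was 0.31 in pool 2, 0.10 in pool 3 and 0.00 in pool 1, with a mean of 0.21 ± 0.15, which did not pass (limma adjusted p = 0.372). Its second probe was at -0.08 ± 0.03, where FR exceeded background on 0 of 4 arrays and control on 2, and was not tested. Srebf1 lay below Srebf2 in log2 ratio by 1.20 in pool 2, 0.55 in pool 3 and 0.61 in pool 1. That difference was not tested beyond these values.

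Insig1, which retains the SREBP precursors and is itself an SREBP target, was too dim for a test. Its brighter probe was above background on 1 of 4 arrays in FR and 2 of 4 in control. Its signals of 106, 106 and 88.7 in FR overlap those of 82.6, 88.4 and 113 in control. The log2 ratio was 0.09 ± 0.02. Its other probe was above background on none of the 6 arrays in either group.

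**Figure D2:**
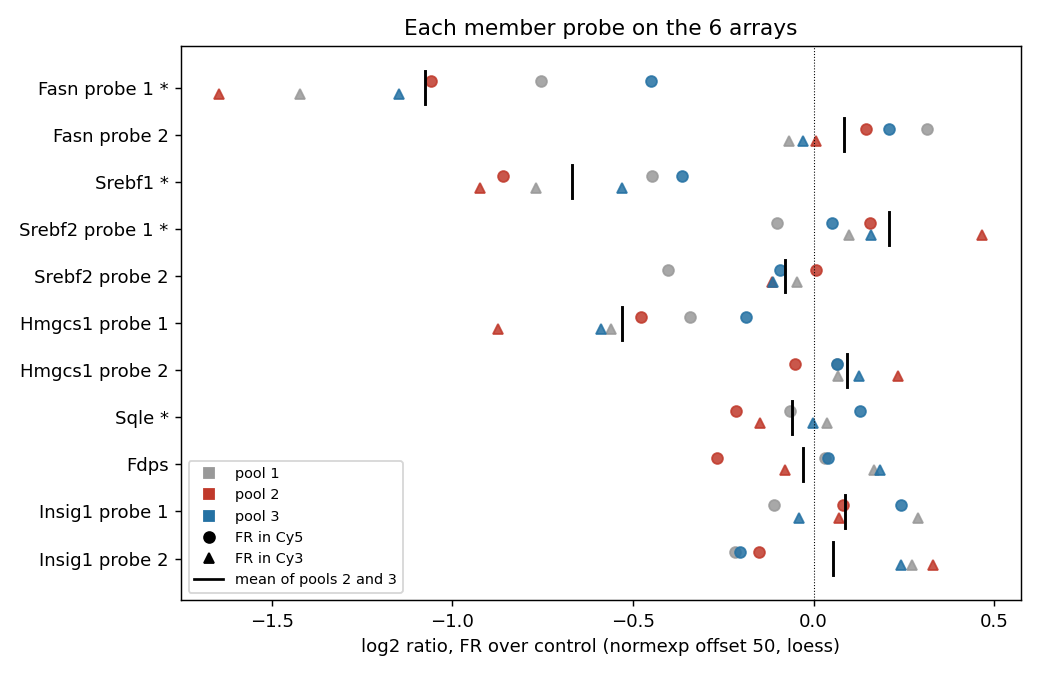
Log2 ratio of FR over control for each of the 11 probes on each array, by pool (colour) and dye (circle for FR in Cy5, triangle for FR in Cy3), with a bar at the mean of pools 2 and 3 and an asterisk on tested probes. Fasn probe 1, Srebf1 and Hmgcs1 probe 1 lie below 0 on all 6 arrays, whereas the second probes of Fasn and Hmgcs1 lie around 0.

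Of the sterol enzymes, Hmgcs1 makes HMG-CoA, an early intermediate of the mevalonate pathway. Its brighter probe had signals of 21.5, 35.6 and 40.6 in FR, against 107, 218 and 111 in control, without overlap of the pool values. FR was above background on none of the 6 arrays and control on 4, so FR has only an upper limit. Hmgcs1 was at least 1.23-fold lower in FR pools 2 and 3 than in control. The measured log2 ratio was -0.67 in pool 2, -0.39 in pool 3 and -0.45 in pool 1, negative on all 6 arrays. In pools 2 and 3 control was above background on 3 of 4 arrays, 1 short of the 4 required for a test. Without that filter the adjusted p was 1.18e-07 (limma). That value uses an FR signal above background on none of the 6 arrays, and the common variance described above makes it too small. The second Hmgcs1 probe was above background nowhere, at 0.09.

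Sqle, squalene epoxidase, the first oxygen-requiring step of the sterol route, did not pass. Signals were 225, 73.7 and 113 in FR and 205, 163 and 155 in control, and the groups overlap. The log2 ratio was -0.18 in pool 2, 0.06 in pool 3 and -0.01 in pool 1, a mean of -0.06 ± 0.17 (limma adjusted p = 0.739). With processed signals it was -0.89 and passed (adjusted p = 0.0347), with FR above background on 1 of the 4 arrays. Fdps, which makes farnesyl diphosphate, was above background on 1 of 4 arrays in each group and was not tested. Its signals of 72.4, 75.8 and 99.4 in FR overlap those of 65.6, 124 and 71.8 in control, with a log2 ratio of -0.03 ± 0.20.

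**Figure D3:**
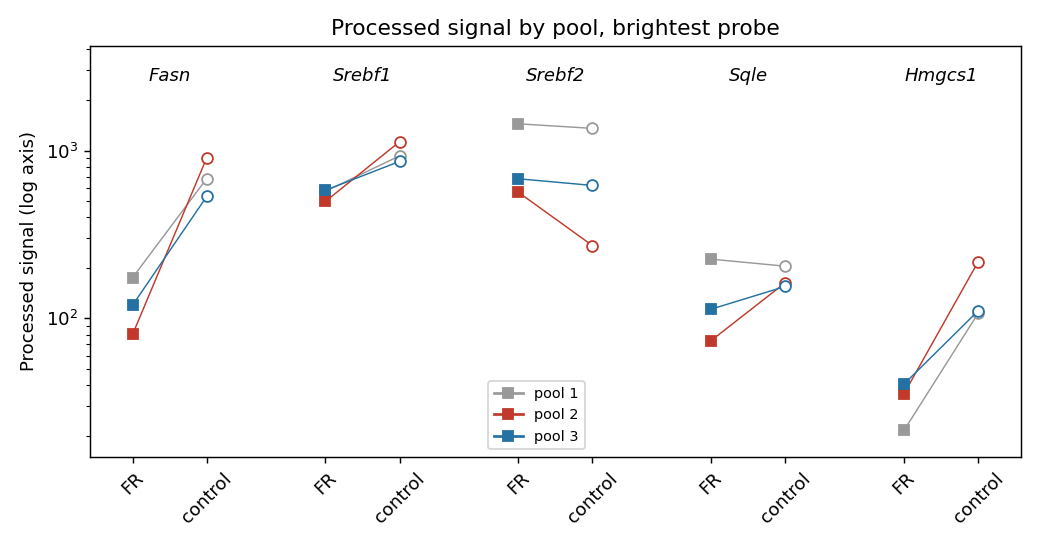
Processed signal (log axis) of the brightest probe of 5 members by pool, FR left and control right, each line joining the FR and control RNA of 1 pool. FR lies below control in all 3 pools for Fasn, Srebf1 and Hmgcs1, while the groups overlap for Srebf2 and Sqle.

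The wider pathway was mixed as well. Over 5 lists of 78 genes, 77 had a named probe and 43 were tested. Of these, 13 fell and none rose, while 30 did not pass. With the members left out the count was 11 of 39, or 28.2%, beside 24.5% of all features and 28.2% of named genes, so the share that fell was near the background. The median log2 ratio of these 39 genes was -0.01, against 0.01 for all features. At the prior degrees of freedom of 3 pools, 9 of the 43 remained lower, and 7 of the 39 with the members left out, beside 15.5% of all features. In the fit with no replicate block, 6 of the 13 remained lower, and the calls on Srebf1, Msmo1, Elovl1, Scd2, Nr1h2, Npc2 and Plin2 ended. At an unadjusted limma p under 0.05, 2 of the 43 genes were higher, Hsd17b7 and Pnpla2, both named here after their values were seen.

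In sterol synthesis, 3 of 11 tested genes fell (median -0.01). Ebp, the sterol isomerase, fell by 0.95 ± 0.16 (limma adjusted p = 1.84e-09), and was at -2.14 with processed signals, which carry no offset. Msmo1, the sterol C4-methyl oxidase, fell by 0.42 ± 0.24 (adjusted p = 0.00289). It entered the test through control, with FR above background on 1 of 4 arrays, so the size of the fall is uncertain, and processed signals gave -1.83. The call ended at the prior degrees of freedom of 3 pools (0.0775) and with pool 1 in place of pool 2 (0.0619). The late steps Sc5d, Tm7sf2 and Hsd17b7 were at 0.02, 0.16 and 0.30 and did not pass, nor did the earlier steps Mvd, Fdft1 and Pmvk at 0.05, 0.00 and -0.01.

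In fatty acid synthesis, 4 of 11 fell (median -0.05). Besides Fasn they were the elongases Elovl5 and Elovl1 and the desaturase Scd2. In FR, Elovl5 exceeded background on 0 of 4 arrays, and as a mean of pools 2 and 3 it was at least 1.83-fold lower there (limma adjusted p = 1.09e-09). That bound equals the measured fold, because the probe's own dim FR signal lay above the array's lowest detected one, and is no firmer than it. The log2 ratio of Elovl5 was -1.06 in pool 2 and -0.68 in pool 3. Its mean was -0.69 without background subtraction and -2.81 with processed signals. Elovl1 fell by 0.71 ± 0.09 (adjusted p = 4.4e-05). Scd2 was at -0.31 ± 0.31, with -0.53 in pool 2 and -0.10 in pool 3 (adjusted p = 0.0219). FR was above background on 1 of 4 arrays, so Scd2 too entered through control, and processed signals gave -1.69. Its call ended in 6 of 17 other processings, with pool 1 in place of pool 2 (0.158) and at the prior degrees of freedom of 3 pools (0.191) among them. Acaca, which makes malonyl-CoA, was at 0.18 ± 0.13, Acly, which makes cytosolic acetyl-CoA, at -0.05 ± 0.04, and the liver-type desaturase Scd1 at 0.02 ± 0.00, and none of them passed.

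Among the regulators of SREBP, 2 of 7 fell, Srebf1 and Nr1h2, which encodes the sterol-sensing nuclear receptor LXR beta, at -0.50 ± 0.06 (limma adjusted p = 0.00572, but 0.0613 at the prior degrees of freedom of 3 pools). Nr1h2 was above background in FR on 3 of 4 arrays and at -0.94 with processed signals. Scap, the escort of the SREBP precursors, was at -0.20 ± 0.09 and did not pass (adjusted p = 0.373). Insig2 was above background on none of 4 arrays in FR and 3 of 4 in control and was not tested.

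Of 8 tested genes of sterol uptake and efflux, 3 fell (median -0.16). The lipoprotein gene Apoe fell by 1.17 ± 0.64 and the lysosomal sterol carrier Npc2 by 1.00 ± 0.59. The exporter Abcg1 exceeded background on 0 of 4 FR arrays. As a mean of pools 2 and 3 it was at least 1.93-fold lower, again the measured fold. The log2 ratio of Abcg1 was -1.08 in pool 2 and -0.81 in pool 3. Its mean was -0.74 without background subtraction and -3.26 with processed signals. Apoe was at -1.63 in pool 2 and -0.72 in pool 3, and at -0.75 with pool 1 in place of pool 2. Npc2 was at -1.42 and -0.59 in pools 2 and 3, and its mean with processed signals was -1.55. All 3 had a limma adjusted p of 2.97e-09 or less. At the prior degrees of freedom of 3 pools it was 0.0174 for Apoe, 0.0260 for Npc2 and 0.00721 for Abcg1. In glycerolipid synthesis and storage, 1 of 6 fell, the droplet coat protein Plin2, at -0.51 ± 0.36 (adjusted p = 0.00137, but 0.0862 at the prior degrees of freedom of 3 pools and 0.0687 with pool 1 in place of pool 2), and the median was 0.09. Plin2 was above background in FR on 2 of 4 arrays, and processed signals gave -1.44.

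**Figure D4:**
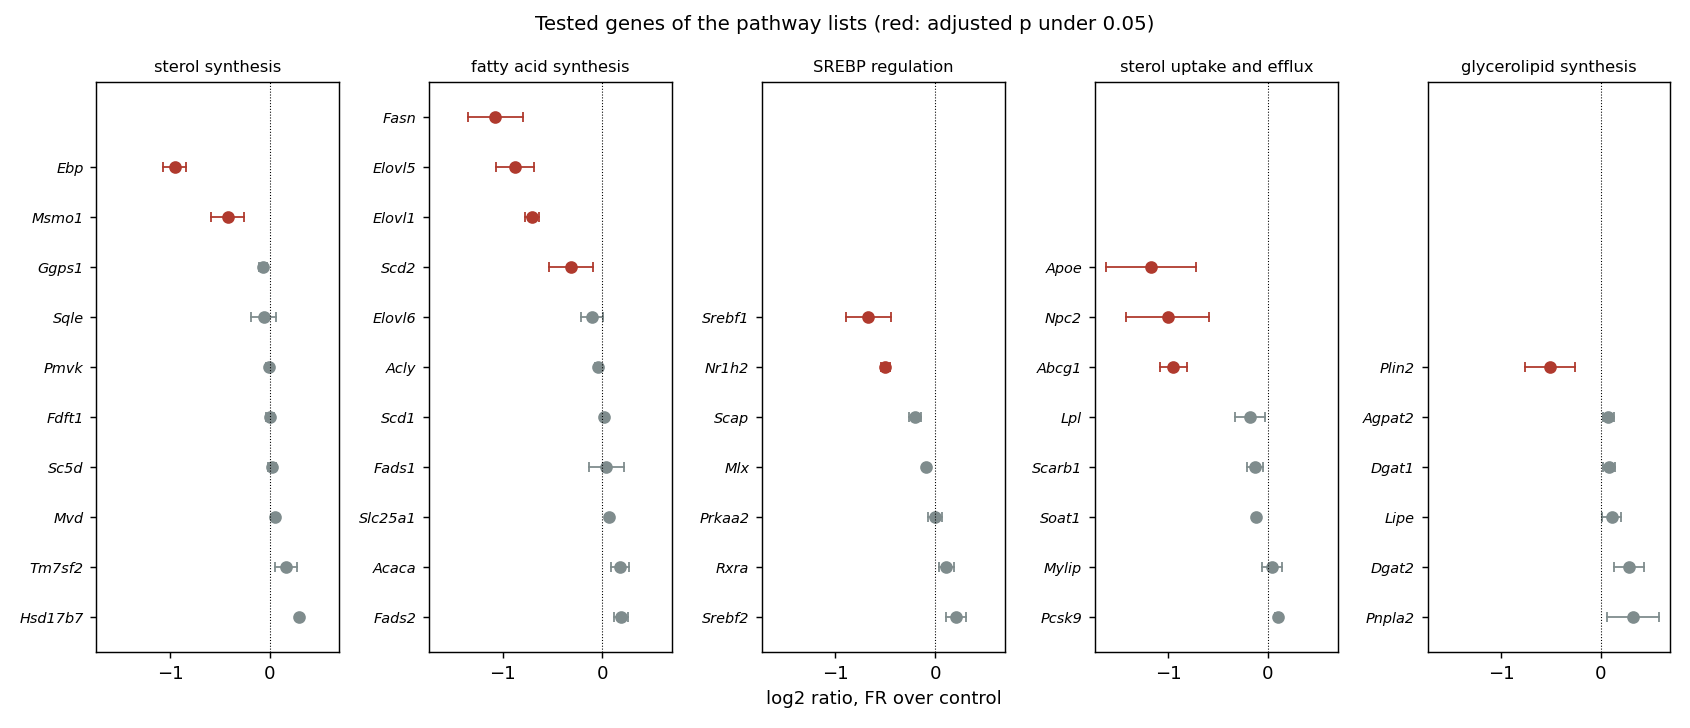
Log2 ratio of FR over control for 42 of the 43 tested genes of 5 pathway lists, as the mean of pools 2 and 3 (points) with the 2 pool values (line ends), and red for adjusted p under 0.05. The 12 genes drawn that fell lie between -1.17 and -0.31, and the other 30 lie around 0.

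The white cell and platelet markers moved in the same direction as Fasn and Srebf1. The platelet median was -1.16 in pool 1, -1.07 in pool 2 and -1.19 in pool 3, beside the white cell medians given above. The part of either list in the result was not tested. Liver and fat are tissues known for high lipid synthesis. Of 4 tested hepatocyte markers and 3 tested adipocyte markers none passed limma's adjusted threshold, nor an unadjusted p under 0.05 (0 of 4 and 0 of 3), and their medians were 0.05 and 0.11. Summed hepatocyte signals were 20817 and 18301 in FR, against 18464 and 19423 in control, and summed adipocyte signals were 1463 and 1912 in FR, against 1020 and 1601 in control. The hepatocyte genes Alb, Ahsg, Tat and Fgb and the adipocyte genes Plin1 and Cidec were above background on all 4 arrays in both groups. Adipoq, Cfd and Ttr were above background on none of the 4 arrays in either group.

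**Figure D5:**
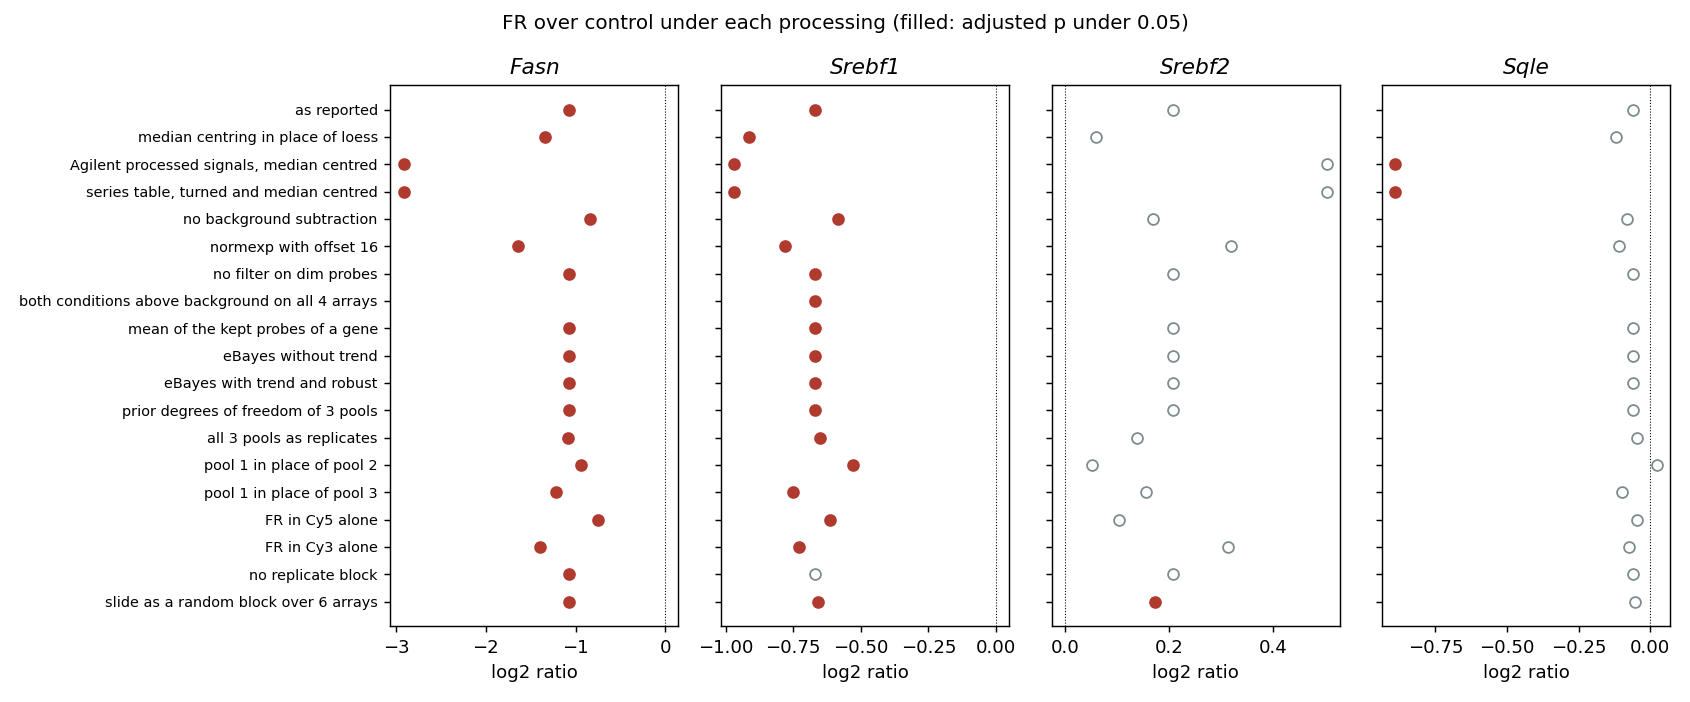
Log2 ratio of FR over control for the 4 tested members as reported and under 18 other processings, each panel with its own scale, filled where the adjusted p was under 0.05 and missing where the gene did not enter. Fasn and Srebf1 stay below 0 throughout, Fasn between -2.92 and -0.75, and Sqle is filled with processed signals and with the series table made from them.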

How the data were processed

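The authors deposited scanner files of spot intensity on a linear scale, with median, local background and processed signals for Cy5 and Cy3. Per the submitters' processing notes, the software was Agilent Feature Extraction 11.0.1.1. RNA came from a column kit and was amplified with a low-input linear kit, per the labels' protocols. The deposited series table gives log10 ratios of red over green processed signal, unturned and uncentred, with column medians between -0.0277 and 0.0520. The dyes in the labels set the direction.

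Background was corrected with normexp (offset 50), ratios were normalized by loess with control spots at weight 0, outlier spots were left out, spots of a probe and the dye-swapped arrays of a pool were averaged, and signs were turned to FR over control. Of 41174 probes, 23374 were named through RefSeq accessions of GRCm38.p6, which also supplied the promoters. Array annotation is on an older build. The brightest kept probe stood for its gene. FR over control was tested against 0 in pools 2 and 3 with limma 3.58.1 (R 4.3.3, eBayes with trend), adjusted over 11508 features and checked on simulated ratios. Bounds used channel signals after loess and Aquantile normalization, with FR set to its own signal or the lowest signal of any probe above background, whichever was higher. Text genes were all members, all list genes past the threshold and preset pathway genes, of which a few are counted but not reported here by name. Members and lists were chosen with earlier results of these data known.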

Additional observations from a re-analysis of the deposited data

How the results depend on the processing

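The 4 tested members were recomputed under 18 other processings. Fasn kept its direction and call in the 17 that gave it a value (-2.92 to -0.75), and Srebf1 kept its call in 17 of 18 (-0.97 to -0.53). No replicate block, which ignores the array pairing, left Srebf1 at -0.67 but ended its call (adjusted p = 0.124). It left 1 member lower, 6 pathway genes lower, and 974 features lower and 114 higher. FR and control deviations of the same pool correlated at 0.68 over features, and the block is the array itself. With both groups above background on all 4 arrays, 7079 features were tested, and of the members Srebf1 entered and Fasn, Srebf2 and Sqle did not. In that smaller set 1 member, 5 pathway genes and 1313 features were lower. With slide as a random block over 6 arrays, Srebf2 passed at 0.17 (adjusted p = 0.00632), 1 member and 8 pathway genes were higher, and 4453 features were lower and 3546 higher. That fit counts single arrays as replicates, both dye orientations of a pool and pool 1 included. These arrays repeat the same animals, so the fit holds fewer independent replicates than arrays, and its calls are not independent evidence. With processed signals, and equally with the series table, Sqle passed at -0.89. Sqle was at 0.025 without replicate 2, the opposite sign, and at -0.098 without replicate 3 (pool 1 in the place of pool 2 or 3), and passed in neither. These 2 replacements gave 1 and 5 pathway genes higher, and 468 and 1717 features higher. All 3 pools as replicates gave 3 pathway genes and 921 features higher, and FR in Cy5 alone gave 1 and 1002. Median centring, which moves the median feature to -0.19, gave 18 pathway genes and 4102 features lower and 181 features higher, and the prior degrees of freedom of 3 pools 1788 lower and 176 higher. Beyond the smaller sets tested, the cause of these changes was not tested. Dim signal kept 3 of the 7 members with a named probe out of the test. Only 1 of 11 probes, that of Srebf1, was above background in both groups on all 4 arrays, so dim FR signal also limits tested members. FR was above background on none of the 4 arrays for 5 of 11 probes.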

Other observations

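Among 7899 named genes that are not members, the 2 closest to each tested member by Euclidean distance over the log2 ratios of the 6 arrays were taken. For Fasn they were Fkbp3, a peptidyl-prolyl isomerase, at a distance of 0.38 and a ratio (log2) of -1.12 ± 0.43 (SD over 2 pools), and Snrnp200, a spliceosome helicase, at 0.44 with -1.03 ± 0.35. For Srebf1 they were the choline transporter-like gene Slc44a2 at a distance of 0.14 and the acid amidase Naaa at 0.18, with log2 ratios of -0.68 ± 0.31 and -0.63 ± 0.36. For Srebf2 they were Rnase4 and Rhbdl2, at distances of 0.08 and 0.10, and for Sqle Galnt7 and Abcc1, at 0.12 and 0.13. No gene of the pathway lists was among the 8.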
